A study of Mus musculus with 4 samples.

Results

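Interferon response genes were followed in blood progenitor cells of mice with a myeloproliferative disease model, with and without the BET bromodomain inhibitor JQ1. The group holds 39 genes listed by name, with no measured value in the rule, out of 21150 genes that could be named on the arrays. A named probe was found for 37 of them, and 36 were well above background on all 4 arrays, as were 12013 genes in all. Mx1 and Mx2 had no named probe and are not described further.

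All 4 groups carried the genotype JAK2V617F/Ezh2Δ/Δ on the C57BL/6 strain. Donor marrow held the JAK2V617F mutation, a floxed Ezh2 gene and the inducible recombinase Cre-ERT2, and it was given to irradiated wild-type mice before Ezh2 was deleted. The groups differed only in cell type and treatment: LSK cells, the marrow fraction that holds stem cells and early progenitors and is sorted on c-Kit and Sca-1, or MEP cells, the progenitors of megakaryocytes and red cells, after 2 weeks of JQ1 or of its solvent DMSO. Each group has 1 array, all on 1 slide. No difference therefore has a replicate check and none was tested, and no group without the JAK2 mutation or with intact Ezh2 was analysed here. The promoter of the recombinase, the age of the mice, how many were pooled and how much host marrow remained are not given in the sources used here.

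Type I interferons bind the receptor made of Ifnar1 and Ifnar2, whose kinases are Jak1 and Tyk2. Signalling leads to a complex with Stat2 and Irf9 that binds the interferon-stimulated response element (ISRE) in promoters of antiviral genes. Interferon gamma acts through another element, the gamma-activated site (GAS). Stem cells of the marrow are known to express part of this programme without infection, and interferon can drive them out of quiescence.

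The promoters of the members often carry the ISRE, which the choice of the genes did not use. Of the 39 members, 29 had a promoter window in the RefSeq table of GRCm38.p6, which spans 250 bases before to 50 after a start site. Ifi27l2a, Zbp1, Usp18, Parp14, Dhx58, Rtp4, Oas2, Parp9, Mx1 and Mx2 were the members without one. The ISRE core, GAAA and again GAAA with any 2 bases between them, was searched on both strands (TTTC and TTTC on the other). It was found for 14 of 29 members (48.3%) and 15 of their 37 windows (40.5%), against 3.44% of all 32851 windows. The GAS letters TTCNNNGAA were found for 8 of 29 members and in 21.6% of their windows, against 8.30% of all windows. In Bst2 and Ifitm3 the GAS letters overlap an ISRE core. A match is a description of the letters and not a bound site. The stretches below, 5′ to 3′ on the strand of the gene, have the ISRE core in capitals, where overlapping copies form 1 run of capitals.
Isg15: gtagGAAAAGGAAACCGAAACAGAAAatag
Ifit1: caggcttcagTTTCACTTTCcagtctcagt
Oas1a: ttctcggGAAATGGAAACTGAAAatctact
Oas3: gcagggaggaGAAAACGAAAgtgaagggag
Rsad2: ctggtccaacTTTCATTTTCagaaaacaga
Gbp2: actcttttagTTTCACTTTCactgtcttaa
Gbp3: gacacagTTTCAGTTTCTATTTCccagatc
Bst2: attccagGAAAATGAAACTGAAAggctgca
They lie, on GRCm38.p6, for Isg15 at chr4:156200871-156200900 (minus strand), Ifit1 at chr19:34640775-34640804 (plus strand), Oas1a at chr5:120907523-120907552 (minus strand), Oas3 at chr5:120777715-120777744 (minus strand), Rsad2 at chr12:26456553-26456582 (minus strand), Gbp2 at chr3:142620594-142620623 (plus strand), Gbp3 at chr3:142559992-142560021 (plus strand) and Bst2 at chr8:71537580-71537609 (minus strand). Isg15 holds 3 overlapping copies, from position -78 to -57 relative to the start site, and Oas1a, Gbp3 and Bst2 hold 2 each. Ifit1 has another core from -85 to -76, which lies past the stretch shown apart from its first base.

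The 250 bases before the start sites of Ifit3, which had the largest difference between the cell types under DMSO among the members, and of Irf1, which has a GAS and no ISRE core, are shown in full, with ISRE cores in capitals for Ifit3 and the GAS for Irf1. Ifit3 lies at chr19:34583279-34583528 (plus strand) and Irf1 at chr11:53769764-53770013 (plus strand).
Ifit3: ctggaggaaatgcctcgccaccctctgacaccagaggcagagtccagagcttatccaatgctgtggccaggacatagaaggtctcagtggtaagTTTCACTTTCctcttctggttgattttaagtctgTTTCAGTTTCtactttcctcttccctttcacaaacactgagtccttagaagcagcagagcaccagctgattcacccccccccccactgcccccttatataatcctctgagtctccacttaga
Irf1: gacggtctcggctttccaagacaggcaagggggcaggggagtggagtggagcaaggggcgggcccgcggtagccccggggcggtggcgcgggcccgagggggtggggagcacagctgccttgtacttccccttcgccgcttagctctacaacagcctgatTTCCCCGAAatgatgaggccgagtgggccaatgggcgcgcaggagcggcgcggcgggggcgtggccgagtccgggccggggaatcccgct

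Levels are given as the log2 of a gene's signal relative to the 75th percentile of its array, so 0 is the 75th percentile. The values of a gene are listed in a fixed order: LSK cells with DMSO, LSK cells with JQ1, then MEP cells with DMSO, then MEP cells with JQ1. A level is compared only between arrays and not between genes. Differences are log2 differences relative to the median measured gene of the comparison. That median gene lay at 0.06 for JQ1 minus DMSO in LSK, 0.34 in MEP, -0.22 for MEP minus LSK under DMSO and 0.07 under JQ1. These amounts have been subtracted, so a difference is not exactly the gap between printed levels. A gene is counted as higher or lower when it differed by at least 2-fold, which is 1 on this scale. Different probes for 1 gene varied with an SD of 0.26, 0.39, 0.37 and 0.27 in these comparisons, in the same sequence. The scanner software's own error of a member's difference had a median of 0.20. These cover errors that differ between probes of this slide, not mice, sorts or labelling.

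Of 8 LSK markers 6 were below the median gene in MEP under DMSO, and all 6 measured erythroid markers were at least 2-fold above it. Slamf1 went against its list, 5.10-fold higher in MEP under DMSO and 2.26-fold under JQ1, and Mecom was 1.83-fold higher under DMSO. The Sca-1 gene Ly6a, used in the sort and itself inducible by interferon, read 4.49, 4.28, -0.32 and 0.21, while the erythroid regulator Gata1 read 2.98, 2.81, 5.37 and 6.43. The DMSO MEP array stood apart in immediate early genes, which are known to respond fast to stimuli: the summed level of 10 of 10 such genes, in units of the 75th percentile signal, was 148, 119, 438 and 138. In bulk samples fewer cells of a type and less RNA per cell cannot be told apart.

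**Figure D1:**
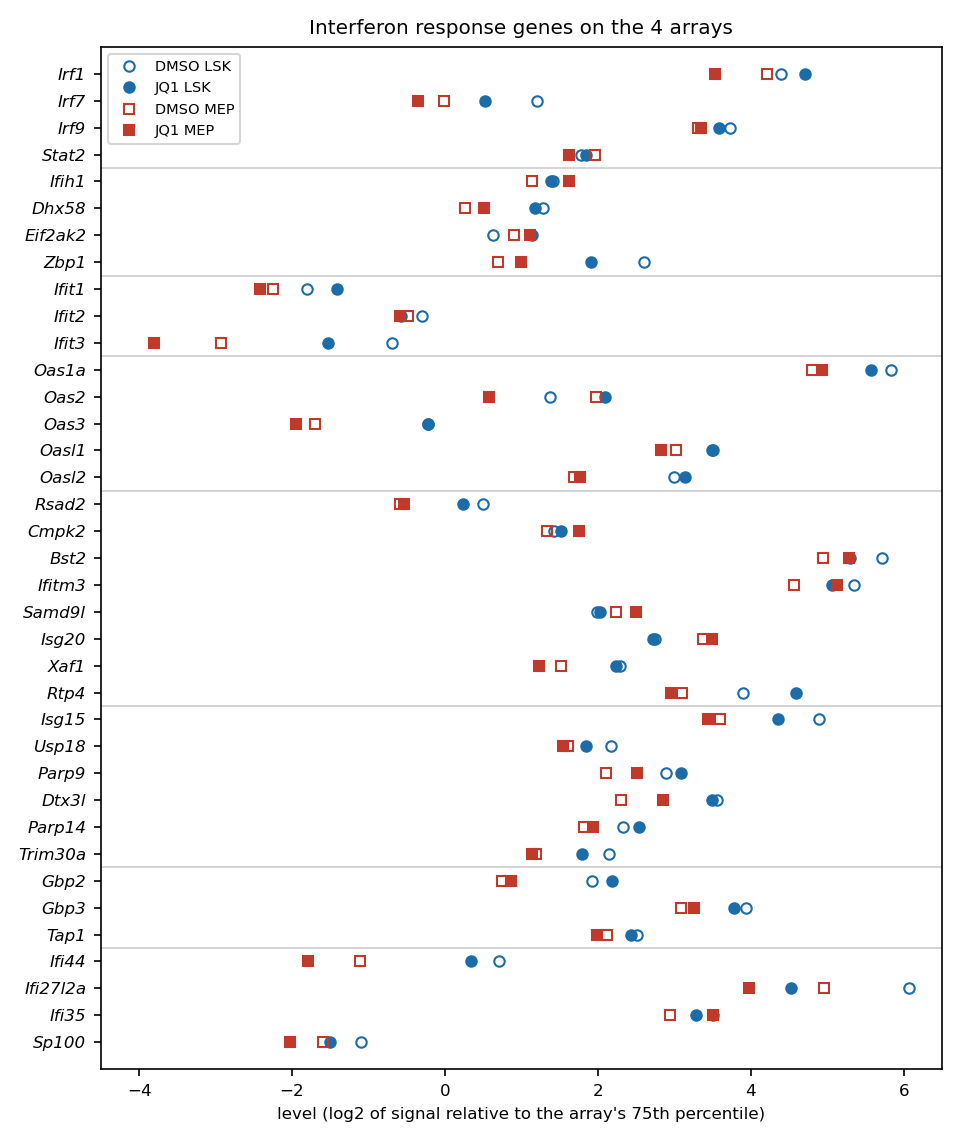
Level of each of the 37 members with a named probe on the 4 arrays, as log2 of the signal relative to the array's 75th percentile (horizontal axis), grouped by role between the grey lines. Each point is 1 array; circles are LSK, squares MEP, open points DMSO and filled points JQ1, and Ifit3 on the JQ1 MEP array was not well above background. In most rows both squares lie left of both circles, as for Oas3, Isg15 and Ifi44.

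As a group the members read lower in MEP than in LSK cells. After each array was centred on its median gene, both MEP arrays lay below both LSK arrays for 24 of 36 members, against 25.6% of all 12013 genes. The reverse held for 3 members, the nucleotide kinase Cmpk2, the antiviral protein Samd9l and the exonuclease Isg20, against 22.7% of all genes. The count of 24 was 25 without this centring, 24 with scaling to the median probe, 24 under quantile normalization and 7 (against 3.45% of all genes) with scaling to spike-in probes.

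Under DMSO the members' median difference, MEP minus LSK, was -0.56 over 37 genes, with 29 below the median gene. With spike-in scaling this median was 0.35, and the median of all genes 0.91. Lower by at least 2-fold were 7 of 37 members (18.9%), where 4.32% of all measured genes were lower, and 0 were higher, against 5.68%. The 7 were Ifit3, Ifi44, Zbp1, Oas3, Oasl2, Isg15 and Dtx3l, and just under the threshold were Irf7 and Gbp2. This count was between 1 (spike-in scaling) and 14 (median probe) over the alternatives in processing, against 0.605% and 9.45% of all genes. Under JQ1 the median was -0.69 over 36 genes, with 31 below the median gene, 9 of 36 lower by 2-fold against a background of 4.01%, and 0 higher against 3.94%. The 9 were Ifi44, Oas3, Rtp4, Oas2, Oasl2, Gbp2, Irf1, Xaf1 and Ifit1. The comparison under DMSO and that under JQ1 share no array.

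**Figure D2:**
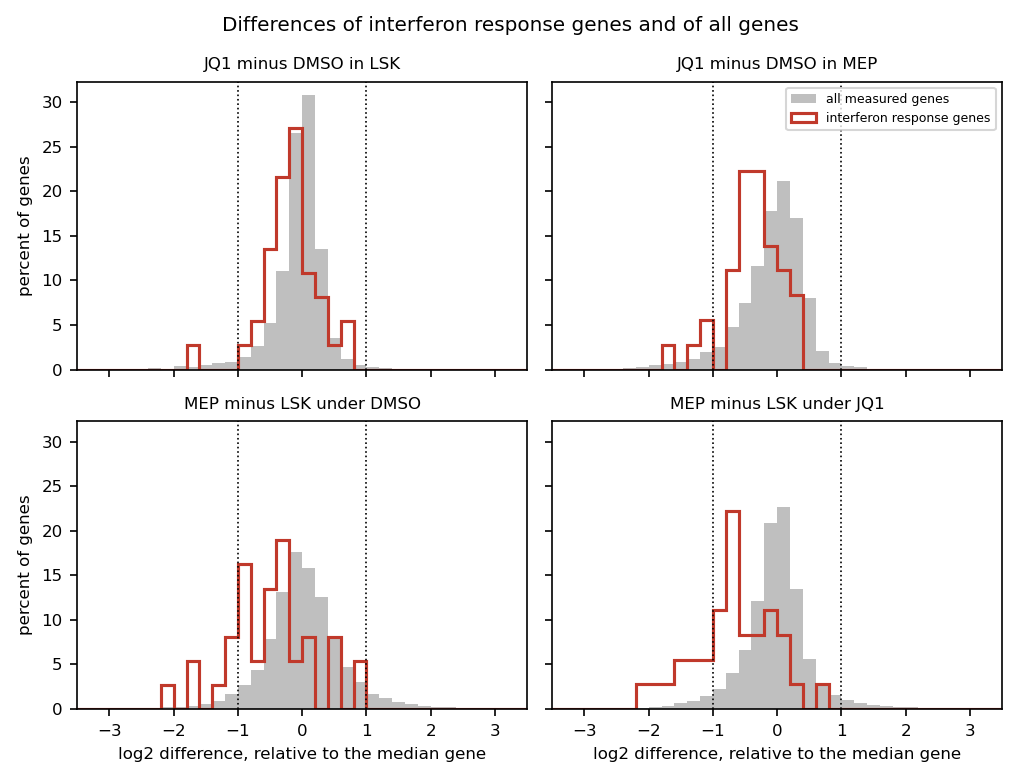
Distribution of log2 differences relative to the median gene (horizontal axis) as percent of genes (vertical axis) for all measured genes (grey) and interferon response genes (red outline) in the 4 comparisons, with dotted lines at 2-fold. The red outline sits left of the grey most clearly in MEP minus LSK, where the members' medians were -0.56 under DMSO and -0.69 under JQ1. With spike-in scaling and no centring the first of these turns to 0.35, and all genes to 0.91.

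Among the genes of the antiviral Ifit proteins, Ifit3 read -0.69, -1.53, -2.93 and -3.80, the last not well above background. It was 4.07-fold lower in MEP under DMSO and at least 4.54-fold lower under JQ1. Its relatives differed less: Ifit1 read -1.80, -1.41, -2.25 and -2.41, and Ifit2, at -0.29, -0.58, -0.48 and -0.59, differed by 0.03 under DMSO and -0.08 under JQ1. The Ifit genes belong to 1 family, and how far a probe tells them apart was not tested.

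The oligoadenylate synthetases make the signal that activates RNase L upon double-stranded RNA, and Oasl1 and Oasl2 are their relatives. Oas3 read -0.23, -0.22, -1.70 and -1.95, so it was 2.39-fold lower in MEP under DMSO and 3.49-fold lower under JQ1. Oasl2 read 2.99, 3.14, 1.69 and 1.76, or 2.13-fold and 2.72-fold lower. For both genes the LSK arrays lay close together and above both MEP arrays. Oas1a (-0.82 and -0.72) and Oasl1 (-0.25 and -0.76) were lower by less. Oas2 was the exception, at 0.82 under DMSO and -1.59 under JQ1.

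Of the ISG15 system, Isg15, a ubiquitin-like protein joined to other proteins during the response, read 4.89, 4.35, 3.60 and 3.44, or -1.07 under DMSO and -0.99 under JQ1. Its other probe gave -1.11 and -1.17. Usp18, which removes Isg15 and damps the receptor, differed by -0.35 and -0.37. All 6 genes of this set, with the ADP-ribosyltransferases Parp9 and Parp14, the ubiquitin ligase Dtx3l that pairs with Parp9, and Trim30a, lay below the median gene in both treatments. Their medians were -0.65 and -0.69. Dtx3l, at 3.56, 3.49, 2.30 and 2.85, was 2.06-fold lower under DMSO and 1.63-fold lower under JQ1, and its other probe gave -0.95 and -1.03, on the opposite sides of the threshold. Parp9 differed by -0.56 and -0.65, Parp14 by -0.30 and -0.67, and Trim30a by -0.74 and -0.72.

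Of the 36 members measured under JQ1, Ifi44, an interferon-induced protein, stood farthest below the median gene. It read 0.71, 0.34, -1.12 and -1.79, with both MEP arrays under both LSK arrays. It was 3.04-fold lower under DMSO and 4.58-fold lower under JQ1. Zbp1, a sensor of Z-form nucleic acid that can trigger cell death, read 2.60, 1.91, 0.70 and 0.99, or -1.69 and -0.99. Its other probe gave -0.80 and -0.97, under 2-fold in both. The RNA sensor Ifih1, with -0.05 and 0.18, and the kinase Eif2ak2, with 0.49 and -0.09, stayed within 2-fold, and the sensor Dhx58 differed by -0.80 and -0.74. Ifi27l2a differed by -0.90 and -0.62, Ifi35 by -0.34 and 0.15, and the nuclear body protein Sp100 by -0.27 and -0.60.

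Of the regulators, Irf7, which amplifies type I interferon production, read 1.20, 0.52, -0.01 and -0.35, with differences of -0.99 and -0.94. Irf9 (-0.20 and -0.30) differed by less than the SD between probes under DMSO. Stat2 differed by 0.40 and -0.30 and Irf1 by 0.03 and -1.25. Gbp2, a guanylate-binding protein of defence against intracellular microbes, read 1.92, 2.19, 0.74 and 0.87, or -0.96 and -1.39. Gbp3 (-0.62, -0.58) and the peptide transporter Tap1 (-0.18, -0.51) were also below the median gene.

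Of the other effectors, the receptor chaperone Rtp4 read 3.90, 4.59, 3.10 and 2.96, with -0.58 under DMSO and 3.25-fold lower under JQ1. Rsad2 (viperin), which makes a chain-terminating nucleotide, differed by -0.88 and -0.84, and Xaf1 by -0.56 and -1.08. The membrane proteins Bst2 (tetherin) and Ifitm3, which block virus release and entry, were lower under DMSO (-0.55 and -0.56) and close to the median gene under JQ1 (-0.08 and -0.01). Isg20 was the member farthest above the median gene in both, at 0.84 and 0.70, and its other probe gave 0.70 and 0.70. Samd9l (0.46 and 0.40) and Cmpk2 (0.12 and 0.16) were the other members higher on both MEP arrays.

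**Figure D3:**
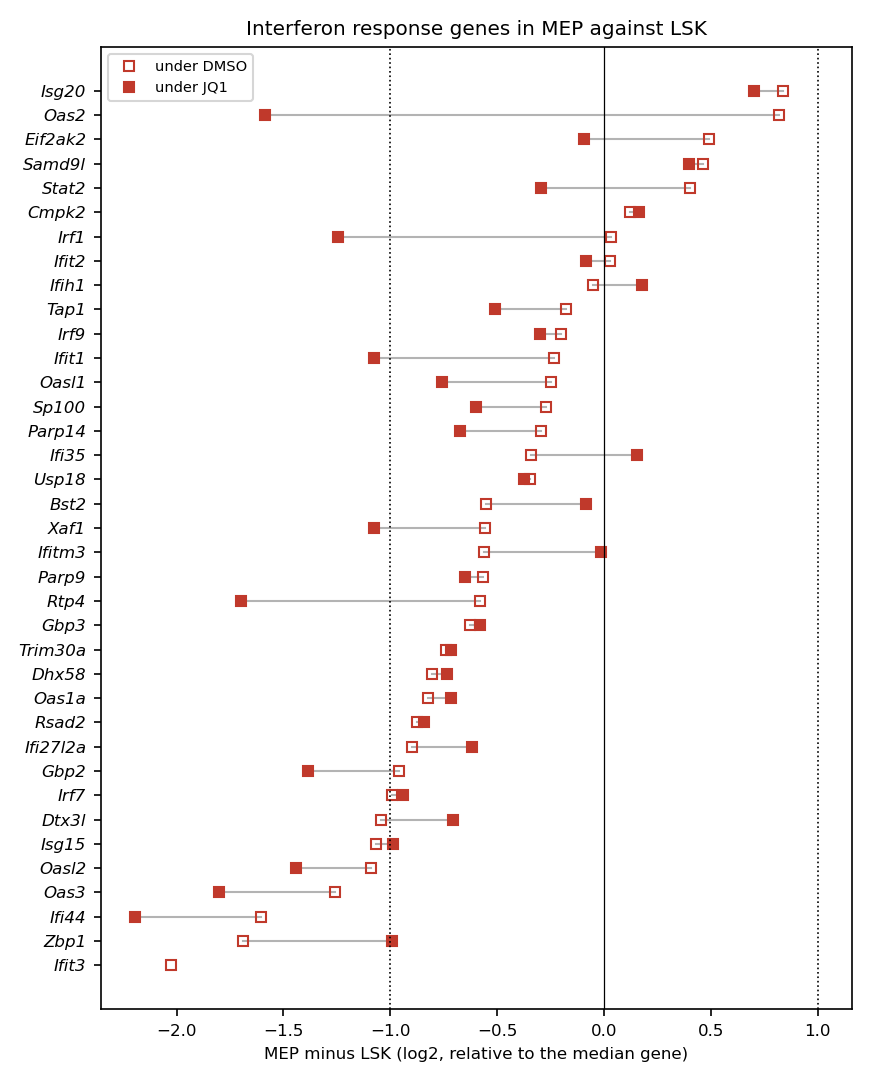
Log2 difference MEP minus LSK relative to the median gene (horizontal axis) of each member under DMSO (open squares) and under JQ1 (filled squares), joined by a grey line and ordered by the value under DMSO, with dotted lines at 2-fold. Most squares of either kind lie left of 0; Oas2 and Irf1 have the longest joins, and Ifit3 has no JQ1 value because it was not well above background there. With spike-in scaling the DMSO values shift by 0.91, which puts their median above 0.

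Beside these differences, the markers of other cells moved too. The B-lineage list (8 of 8 on the array, Pax5 not above background on any) summed to 158, 39.1, 56.5 and 23.6. The monocyte and macrophage list (8 of 9 on the array) summed to 149, 64.2, 60.1 and 55.7. The plasmacytoid dendritic list (8 of 8), cells known for making type I interferon, summed to 373, 315, 423 and 254, a sum in which Siglech weighs most. Gene by gene, 7 of 8 were below the median gene in MEP under DMSO (median -1.17, 4 by 2-fold), and 7 of 8 with JQ1 in LSK (median -0.52, 3 by 2-fold). T and NK markers (9 of 9) summed to 79.7, 77.5, 70.0 and 106, with Nkg7 weighing most, while 8 of 9 were below the median gene in MEP under DMSO and the median with JQ1 in LSK was -0.79. The neutrophil list (7 of 7), in which Mpo weighs most, summed to 1065, 641, 858 and 1553. Its median for MEP minus LSK was 3.13 under DMSO (5 measured) and 2.21 under JQ1 (7 measured), and with JQ1 in LSK 2 of 5 were higher by 2-fold, S100a9 (1.47) and Camp (1.91), and 1 was lower. The members summed to 430, 356, 253 and 259 in the same units and order. Bright members weigh most in this sum, such as Ifi27l2a, which read 6.07, 4.52, 4.95 and 3.97. With JQ1 in LSK only 1 of 37 members was lower by 2-fold. The part of other cells in the members' differences was not tested.

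Between JQ1 and DMSO in LSK, 36 of 37 members differed by less than 2-fold. Over 37 members the median difference was -0.14, with 27 below the median gene and 10 above. This median was 0.12 with scaling to the median probe and 0.49 with spike-in scaling, where the median of all genes was 0.26 and 0.635. Without the background filter the members' median was 0.0020. Only Ifi27l2a was lower by 2-fold, 1 of 37 (2.70%), which is near the 3.22% of all measured genes, and 0 were higher against 0.544%. The next was Ifit3 at -0.90, just under the threshold, followed by Zbp1 (-0.75) and Irf7 (-0.74). On the other side Oas2 (0.65), Rtp4 (0.62) and Eif2ak2 (0.44) stood highest.

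Ifi27l2a, a small interferon-induced protein, read 6.07, 4.52, 4.95 and 3.97. It was lower on the JQ1 array of each cell type, at -1.61 in LSK and -1.32 in MEP, and JQ1 MEP was the lowest of the 4. The difference in LSK ranged from -1.64 to -0.98 over 9 alternatives and stayed beyond 2-fold in 8 of them. In MEP it ranged from -1.84 to -0.57, beyond 2-fold in 7 of 9. B-lineage markers were lower in both cell types as well, 7 of 7 measured by 2-fold in LSK with a median of -2.35, and 5 of 6 in MEP with a median of -1.97. Monocyte and macrophage markers were lower for 5 of 8 in LSK (median -1.24) and for 1 of 8 in MEP (-0.35). Their part in the reading of Ifi27l2a was not tested.

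In MEP the members' median difference under JQ1 was -0.29 over 36 genes, with 29 below the median gene and 7 above. It was 0.0495 without centring and 0.46 with scaling to the median probe. The median gene itself was higher on the JQ1 array there, at 0.34 and 0.75. With spike-in scaling the members' median was -0.81 and that of all genes -0.52. Lower by 2-fold were 4 of 36 (11.1%), Oas2, Ifi27l2a, Irf1 and Ifi44, against 5.77% of all genes, and 0 were higher against 0.98%. Ifit3 had only a bound, at least 2.07-fold lower. Irf1 and Ifi44 lay at the threshold, both at -1.01, and Sp100 (-0.78), Stat2 (-0.69) and Irf7 (-0.68) lay inside it. The count of 4 was between 0 (median probe) and 13 (spike-in scaling) over the alternatives, against 1.37% and 17.5% of all genes.

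Oas2 read 1.38, 2.09, 1.97 and 0.57, so JQ1 MEP was the lowest array. The highest printed level was on JQ1 LSK. Relative to the median gene, DMSO MEP stood farther above DMSO LSK (0.82) than JQ1 LSK did (0.65). The JQ1 difference of Oas2 was 0.65 in LSK and -1.74 in MEP, and the latter stayed beyond 2-fold in 7 of 8 alternatives. Irf1, a transcription factor induced mainly by interferon gamma, read 4.39, 4.71, 4.21 and 3.54, with 0.26 in LSK and -1.01 in MEP. JQ1 MEP was the lowest of its arrays. The difference of Irf1 stayed beyond 2-fold in 6 of 9 alternatives and that of Ifi44 in 3 of 8. Beside these, all 10 immediate early genes were lower by 2-fold under JQ1 in MEP, with a median of -1.75, and 0 of 10 in LSK, with a median of -0.21. Fosb, for example, read 3.00, 2.86, 5.79 and 2.58. Their part in the members' differences was not tested.

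By role, the 4 transcription factors had a median JQ1 difference of -0.11 in LSK and -0.68 in MEP, where all 4 lay below the median gene. The 5 oligoadenylate synthetase genes had -0.05 and -0.54, with 3 and then 5 of them below it. In MEP these were Oas1a (-0.21), Oas2, Oas3 (-0.59), Oasl1 (-0.54) and Oasl2 (-0.26). The 4 sensors and kinase had -0.13 and -0.06, nearer to the median gene than these 2 sets in MEP but not in LSK. In LSK they ranged from -0.75 (Zbp1) to 0.44 (Eif2ak2). The 6 genes of the ISG15 set had -0.26 and -0.30, the guanylate-binding proteins with Tap1 -0.14 and -0.21, and the 8 other antiviral effectors -0.11 and -0.14. The Ifit genes had -0.35 (3 measured) and -0.47 (2 measured). Ifi44, Ifi27l2a, Ifi35 and Sp100, which have no shared role here, had -0.45 in LSK and -0.89 in MEP, with 1 and then 2 of 4 lower by 2-fold. Among the effectors Bst2 (-0.47 in LSK, 0.01 in MEP) and Ifitm3 (-0.34, 0.22) were lower in LSK and at or above the median gene in MEP.

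**Figure D4:**
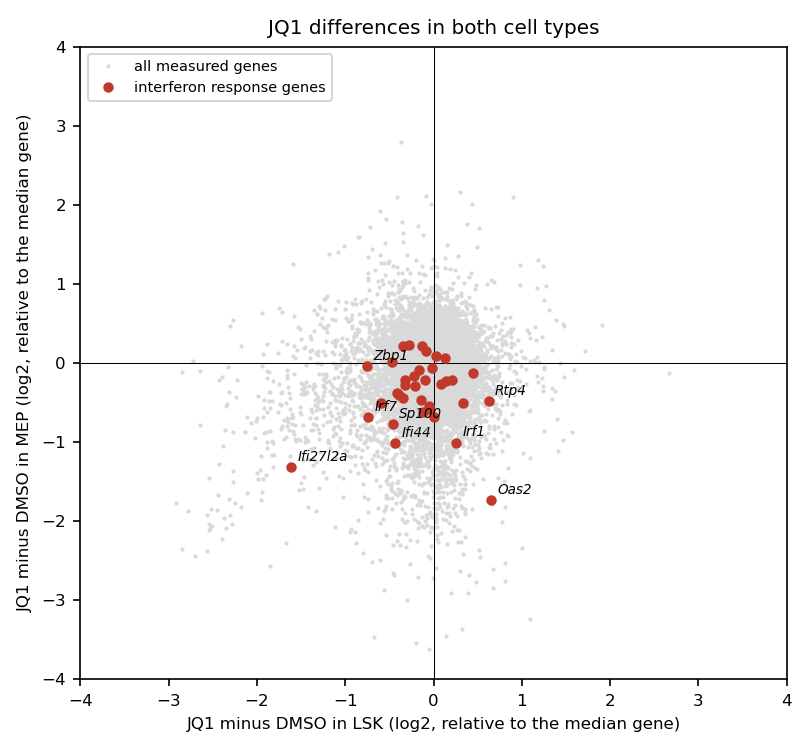
JQ1 minus DMSO in LSK (horizontal axis) against JQ1 minus DMSO in MEP (vertical axis), both as log2 differences relative to the median gene, for all measured genes (grey) and 36 interferon response genes (red), with the members farthest from the centre named. Ifi27l2a lies low in both cell types (-1.61 and -1.32), and Oas2 lies right of 0 in LSK (0.65) and low in MEP (-1.74). The position of the whole cloud depends on scaling: uncentred, the members' LSK median is 0.12 with the median probe and 0.49 with spike-ins. Their MEP median is 0.0495 with the 75th percentile and 0.46 with the median probe. The medians of all genes under these settings are 0.26 and 0.635 in LSK, and 0.34 and 0.75 in MEP.

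The JQ1 comparisons of LSK and MEP share no array. With each array centred, JQ1 lay below DMSO in both cell types for 19 of 36 members, against 24.0% of all genes, and above it in both for 2, Cmpk2 and Parp9, against 30.6%. Cmpk2 differed by only 0.03 in LSK and 0.09 in MEP, and its other probe gave -0.05 and -0.18. The count of 19 was 10 without centring, 3 with the median probe, 3 with spike-ins and 16 under quantile normalization, against 11.9%, 3.17%, 5.62% and 16.6% of all genes. The count of 2 was 7, 20, 0 and 5 under these settings, against 48.9%, 76.2%, 4.80% and 39.4% of all genes, so with the median probe most members read higher under JQ1 in both. Among the 19 were Isg15 (-0.59 in LSK, -0.50 in MEP), Irf7 (-0.74, -0.68), Usp18 (-0.39, -0.40) and Trim30a (-0.42, -0.39), none of them by 2-fold. The difference of the JQ1 differences, MEP minus LSK, had a median of -0.08 over 36 members, and 3 (Oas2, Irf1 and Rtp4) were lower by at least 2-fold, or 8.33% against 5.84% of all genes. None was higher, against 3.37%. The DMSO LSK array was the highest of the 4 for 22 of 36 members (25.9% of all genes) and JQ1 MEP the lowest for 25 (23.5% of all genes). The count of 22 was 19 without centring, 11 with the median probe, 2 with spike-ins and 21 under quantile normalization. The shares of all genes were 20.6%, 9.13%, 1.66% and 22.2%. The count of 25 was 17, 5, 28 and 21 under the same settings, against 12.9%, 4.14%, 20.7% and 17.2% of all genes.

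Upstream of the members, the interferon genes themselves were mostly undetected. Ifnb1, Ifna4 and Ifne were not well above background on any array, Ifna2, Ifnk and Ifng only on DMSO MEP, and Ifnl3 was above it on all 4. DMSO MEP was also the array with most probes well above background, 53.2% against 45.2% to 47.4% on the others. Under DMSO the bounds put MEP at least 1.11-fold above LSK for Ifna2 and 1.15-fold for Ifnk. For Ifng the log2 bound was -0.19, which sets no direction. With JQ1 in MEP the bounds of Ifna2, Ifnk and Ifng were also under 2-fold, so no 2-fold difference was shown for them. Of 6 receptor genes 5 were measured in every comparison, and Ifnlr1 was well above background only on DMSO MEP. Ifnar1 read 1.92, 1.66, 1.43 and 1.26, with JQ1 differences of -0.33 and -0.51, and Ifnar2 had -0.23 and -0.35. The interferon gamma receptor genes Ifngr1 (-0.33 in LSK, 0.04 in MEP) and Ifngr2 (-0.30, -0.35) and the kinases Jak2 (0.08, -0.01) and Tyk2 (-0.26, -0.30) stayed within 2-fold. Jak1 read higher on both JQ1 arrays, 0.44 in LSK and 0.64 in MEP.

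A wider list of 103 interferon pathway genes outside the members gave medians near 0 for JQ1. In LSK it was -0.08 over 93 genes, with 6 lower by 2-fold (6.45%, against 3.22% of all genes) and 0 higher (0.544%). The 6 were Irf4 (-2.03) and Irf8 (-1.47), factors of lymphoid and myeloid cells, the DNA sensor family gene Ifi211 (-1.74), the lysosomal reductase Ifi30 (-1.24), the chemokine Cxcl9 (-1.22) and the Toll-like receptor chaperone Unc93b1 (-1.17). The lower monocyte and B-lineage markers given above stand beside these, and their part was not tested. In MEP the median was -0.08 over 91 genes, with 3 lower by 2-fold (3.30%, under the 5.77% of all genes) and 0 higher (0.98%). The 3 were the chemokine Cxcl10 (-2.10), Gbp6 (-1.55) and Nlrc5 (-1.02), the activator of MHC class I genes. Genes well above background on 1 array only of a comparison are outside these counts and have bounds. Among them, with JQ1 in MEP, Irf4 was at least 6.41-fold lower, Tlr3 at least 2.62-fold and Ifnlr1 at least 2.07-fold. In LSK Tlr3 was at least 2.64-fold lower and Slfn5 at least 2.36-fold. In MEP against LSK the same list had medians of -0.28 under DMSO and -0.36 under JQ1, with 71 of 95 and 73 of 91 below the median gene.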

How the data were processed

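RNA of sorted LSK and MEP cells was labelled with Cy3 and hybridised to 4 one-colour Agilent mouse arrays, per the labels. Per the file headers, the authors scanned design 028005 (mm9) with Feature Extraction 10.7.1.1 and its protocol GE1_107_Sep09. The deposited scanner output gives each spot's processed signal and its error as an intensity, after background subtraction. It also marks spots as well above background, outlier or saturated. The background and outlier marks were used as filters, and saturation was only counted. The authors' deposited table holds a ratio of processed signal to 1 constant for each array (75th percentile 1.00), with the tool not given in the sources used here. From the intensities, log2 values were averaged over spots without outlier marks and reduced by the array's 75th percentile (a signal of 210 and 245 for LSK with DMSO and JQ1, and of 327 and 233 for MEP). No probe was saturated, and 45.2% to 53.2% of 55681 probes were well above background, which limits precision for dim genes. Probes were named through transcript accessions and RefSeq (GRCm38.p6), 50.3% of them. The 37 members had 47 probes, and the brightest per gene over the 4 arrays was used. A gene was measured when above background without outlier mark on both arrays. Where it was so on 1 array only, a bound took the higher of its own reading and the lowest level well above background on the other. Differences were centred on the median measured gene and called at 2-fold. Each group has 1 array, so its spread was not measured and no test was run.

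The members and gene lists were chosen with earlier results of these data known. Named were all members, receptors and kinases, and other pathway genes past 2-fold under JQ1. The comparison code was tested on simulated data. For background correction normexp (limma 3.58.1) took the median spot and background signals in place of the mean signal that had been planned. Alternatives covered scaling, background, probe choice and filters. Python 3.11.15 and R 4.3.3 were used. The result of 1 gene under this rule is not reported here.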

Additional observations from a re-analysis of the deposited data

Results flagged for a closer look

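Of 36 members measured in both cell types, 3 had JQ1 differences of opposite sign in LSK and MEP that lay at least 2-fold apart, against 6.72% of all 12013 genes. With 1 array per group the difference between the cell types was not tested. For Oas2 the MEP value less the LSK value was -2.39 (0.65 in LSK, -1.74 in MEP). For Irf1 it was -1.27 (0.26 and -1.01), and for Rtp4 it was -1.11 (0.62 and -0.48).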

How the results depend on the processing

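No paired analysis was possible because each group has 1 array, and for the same reason no array could be left out. The 9 alternatives were all run. Medians of the members moved mostly where values were not centred on the median gene. For JQ1 minus DMSO in LSK the median of -0.14 became 0.12 (median probe), 0.49 (spike-in) and 0.0020 (no background filter). In MEP the median of -0.29 became 0.0495 (75th percentile only), 0.46 (median probe) and -0.81 (spike-in). For MEP minus LSK under DMSO -0.56 became 0.35 (spike-in), and the difference of the JQ1 differences, -0.08, became 0.20 (75th percentile only), 0.42 (median probe) and -1.24 (spike-in). In the scalings the median of all genes moved too, in LSK to 0.26 (median probe) and 0.635 (spike-in). In MEP it moved to 0.34 (75th percentile only), 0.75 (median probe) and -0.52 (spike-in). For MEP minus LSK under DMSO it moved to 0.91 (spike-in). For the difference of the JQ1 differences it moved to 0.28, 0.50 and -1.15 in the order given. Counts of members at 2-fold moved as follows. In LSK under spike-in scaling 3 were higher and 0 lower, against 6.98% and 1.1% of all genes. In MEP the count of 4 lower became 1 (75th percentile only), 0 (median probe) and 13 (spike-in). The shares of all genes there were 2.93%, 1.37% and 17.5%. The count became 2 with the mean over probes (5.41%) and 2 for genes above the median level (2.15%), which tests fewer genes. For MEP minus LSK under DMSO the count of 7 lower became 13 (75th percentile only), 14 (median probe) and 1 (spike-in). The shares of all genes there were 7.3%, 9.45% and 0.605%. The count became 3 with normexp (1.81%), 4 without the background filter (5.63%) and 3 above the median level (1.76%). Under spike-in scaling 6 were higher, against 42.7% of all genes. For MEP minus LSK under JQ1 the count of 9 became 5 above the median level, against 2.15% of all genes. Beyond the arithmetic of scaling and of testing fewer genes, the cause was not tested. Under quantile normalization each of these medians and counts kept its direction and stayed close to its value. The deposited table, 1 of the 9 alternatives, is the same signal divided by 1 constant per array. Once centred it had to return nearly the same values, so it is no separate check. The order of arrays under other scalings was added after the data were seen. Dim members such as Ifit3, Ifit1, Sp100 and Oas3 are the least precise.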

Other observations

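The 14 members with an ISRE core in their promoter window and the 15 with a window but no core had JQ1 medians of -0.27 and -0.13 in LSK and, with 13 and 15 measured, -0.21 and -0.45 in MEP. For MEP minus LSK their medians were -0.68 and -0.25 under DMSO and -0.72 and -0.60 under JQ1. These are descriptions with no test.

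Zbp1 had a pair of probes above background on all 4 arrays that differed under JQ1 in MEP, -0.04 for the probe used and -1.02 for the other, while in LSK they read -0.75 and -0.86. Among 8 members with several measured probes this gap of 0.98 was the largest in that comparison, where the median gap was 0.21.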
